A study of Homo sapiens with 6 samples.

Results

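The 28 genes described here encode the enzymes and regulators of cholesterol and fatty acid synthesis, from the condensation of acetyl-CoA to the last sterol reductase and from citrate cleavage to fatty acid desaturation, in BT474 cells. They were taken by symbol, as every probe that carries 1 of the 28 gene names, and make up 35 of 58201 probes and 28 of 43317 gene names on the array. BT474 is a breast cancer line of luminal type that carries an amplified HER2 gene. All 3 groups were BT474 cells grown in RPMI-1640 with serum, with 2 one-color arrays for each group. Control cells were transfected with an empty pcDNA3.1 plasmid, BT474-Var1 cells with pcDNA3.1 holding the long variant 1 of the lncRNA NR2F1-AS1, and BT474-Var4 cells with pcDNA3.1 holding its short variant 4. The methods name an eGFP backbone for variant 4, a hygromycin backbone for variant 1 and an empty control of each. Which of them the Control cells of these arrays carried is not given in the sources used here. Variant and backbone cannot be told apart between the BT474-Var1 and BT474-Var4 cells, nor against Control where the backbones differed. By the study's description, all populations went through antibiotic selection, and those with a variant grew from the few cells that outlived a long loss of viability, so that survival of some cells and change within cells cannot be told apart. The comparisons of BT474-Var1 and BT474-Var4 cells with Control share the Control arrays. The replicates are labeled only A and B, and where they did not come from separate cultures the p-values measure a technical spread. Where they were cultures of 1 transfected population, the p-values do not measure the spread between transfections. A variant and the selected population that carried it then cannot be told apart.

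Cholesterol is made from acetyl-CoA through mevalonate, the isoprenoid diphosphates, squalene and lanosterol, and a series of reductases, demethylases and isomerases then turns lanosterol into cholesterol. Most of these enzymes, and those of fatty acid synthesis, are transcribed under the SREBP factors, which leave the endoplasmic reticulum with SCAP when sterol is low and are held there by the INSIG proteins when sterol is high. SREBF1 encodes the factor that acts mainly on fatty acid genes and SREBF2 the one that acts mainly on cholesterol genes. HER2-amplified breast cancer cells are known for active fatty acid synthesis.

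The arrays were similar in quality. Between 47.6% and 57.5% of probes were well above background on each array, the lowest share on BT474-Var4 replicate B, and replicate arrays correlated at r = 0.993 to 0.996 over the tested probes. All 35 probes of the 28 genes were among the 31858 tested, and the main probe of each gene, its brightest tested probe by the mean of all 6 arrays, was well above background on all 6. The 10 luminal and HER2 markers were well above background on all 6 arrays, beside 1 of 3 fibroblast (COL1A1), 1 of 2 immune (PTPRC) and 2 of 3 endothelial (VWF, CDH5) markers, while this held for 0 of 3 basal and 0 of 3 adipocyte markers. Of the 4 probes of NR2F1-AS1, A_22_P00006112 read -0.19 and -0.22 in BT474-Var1 cells and was not well above background in BT474-Var4 cells, whereas A_24_P51080 read 1.67 and 1.50 in BT474-Var4 cells and was not well above background in BT474-Var1 cells. All arrays shared 1 slide, where the BT474-Var1 pair had a column apart from the other 4, so that position and group cannot be told apart for BT474-Var1 cells. Levels below are log2 intensities after subtraction of the array's 75th percentile, so that 0 is that percentile, and differences are on the same log2 scale. A gene was called at an adjusted p under 0.05 in limma, adjusted over all tested probes. In BT474-Var1 against Control, the arrays did not overlap in 25 of the 28 genes, and in 26 for each other comparison. With 2 arrays per group, such separation thus does not mark the called genes, and its share over all genes was not counted.

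In BT474-Var4 cells, genes fell at each of the 6 stages considered here, from the entry of the mevalonate pathway to fatty acid synthesis. Of the 28 genes, 17 fell, 1 rose (PMVK) and 10 did not pass the test. Over all 24619 genes tested, 14.6% were called lower and 10.2% higher. The falls were moderate: the largest was that of INSIG1, the sterol-sensing anchor that retains SREBPs, to 0.596-fold of its Control level, followed by SREBF1 at 0.632-fold, a fall seen by 1 of its 2 probes, EBP, the sterol isomerase, at 0.651-fold and SCD, the stearoyl-CoA desaturase, at 0.653-fold. The median difference over the 28 genes was -0.28, against -0.08 over all genes, and 24 of the 28 lay below 0. Among the 12071 genes brighter than the 75th percentile, where 26 of the members lie, 17.8% were called lower. In RNA of a whole population, fewer cells with a transcript and less of it per cell cannot be told apart.

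The number of calls in BT474-Var4 cells rested on all 6 arrays, since the fit shares 1 spread over the 3 groups. A fit of only the 2 groups compared left 12 genes called lower, beside 9.84% of all probes. Omitting either BT474-Var1 array also lowered the number. Leaving out Control replicate A left 3 genes called lower and Control replicate B left 4, and leaving out either BT474-Var4 array left 7, while the share of all probes called lower dropped from 14.3% to 2.33%, 2.17%, 5.57% and 4.28% in the same order. With no filter on dim probes 1 gene was called lower, INSIG1, beside 0.498% of all probes. Quantile normalization left 14 genes called lower, without TM7SF2, SREBF2 and FASN, beside 11.0% of all probes. The direction of the 17 calls was the same under all 16 alternatives, and INSIG1 was called under all of them. The calls of PMVK, TM7SF2, SREBF2, STARD4 and ACLY were lost without any 1 of the 6 arrays.

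**Figure D1:**
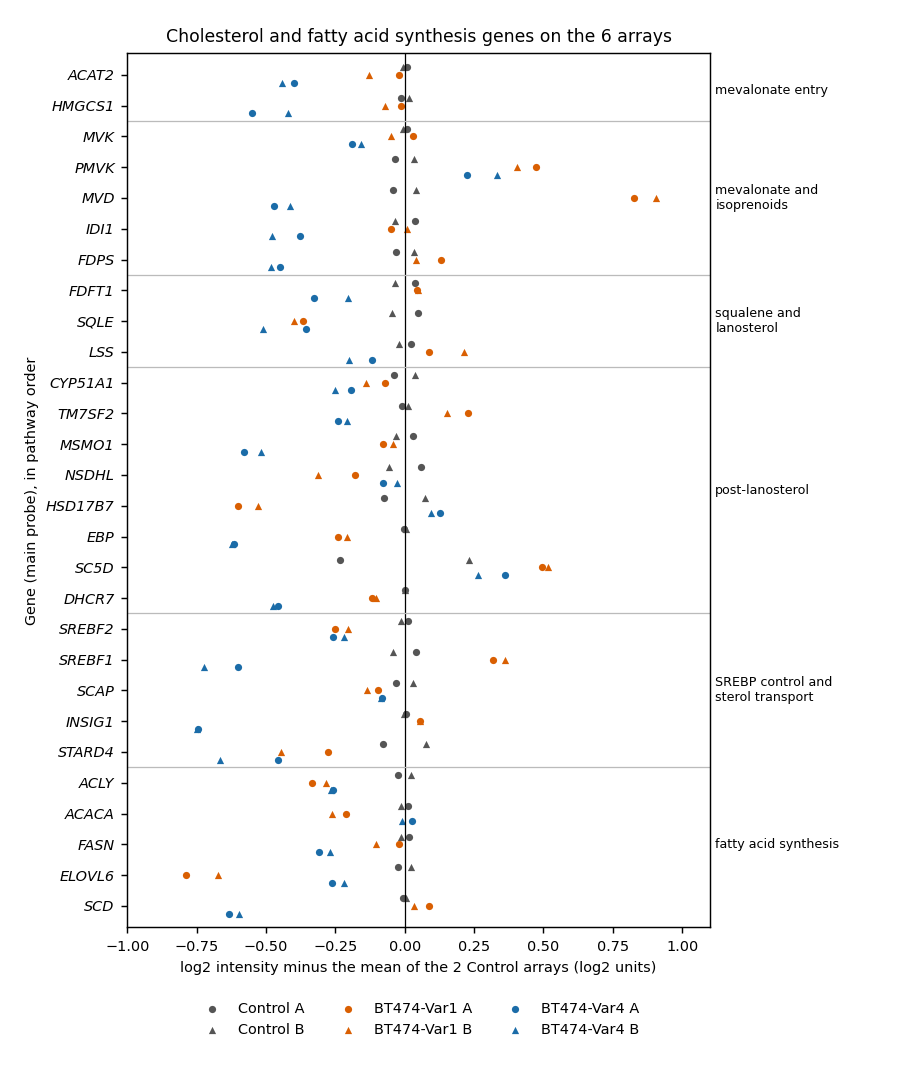
Log2 intensity of the main probe of each of the 28 genes on the 6 arrays, less the mean of the 2 Control arrays, with genes in pathway order and the array replicate shown by the symbol. The BT474-Var4 arrays lie left of 0 in 24 of the 28 genes, whereas the BT474-Var1 means spread to both sides, from -0.73 for ELOVL6 to 0.87 for MVD.

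The picture in BT474-Var1 cells was mixed. Against Control, 3 genes rose (PMVK, MVD and SREBF1), 7 fell (SQLE, HSD17B7, EBP, SREBF2, ACLY, ACACA and ELOVL6) and 18 did not pass the test, beside 14.2% of all genes called higher and 20.7% called lower. The largest rise was that of MVD, mevalonate diphosphate decarboxylase, to 1.82-fold, and the largest fall that of ELOVL6, the elongase of saturated C16 fatty acids, to 0.603-fold. The median difference was -0.06, against -0.05 over all genes and -0.11 over the genes brighter than the 75th percentile, of which 32.3% were called lower. The count depended on the scaling: after quantile normalization 5 genes were called higher and 4 lower, the median was 0.05 and the sign turned in 7 genes, none of them among the 10 calls. Of the 7 genes called lower, 3 (HSD17B7, ACLY and ELOVL6) were among those 4, while SQLE, EBP, SREBF2 and ACACA lost their calls and STARD4 gained one. Leaving out either Control or either BT474-Var1 array left 2 genes called lower, leaving out either BT474-Var4 array left 4, and leaving out Control replicate A or BT474-Var1 replicate A left 1 called higher. With no filter on dim probes 1 gene was called higher and 1 lower, beside 2.37% and 2.23% of all probes. MVD and ELOVL6 were called under all 16 alternatives. The calls of EBP, SREBF2 and ACACA were lost without any 1 of the 6 arrays.

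Direct comparison of both transfected populations gave lower levels in BT474-Var4 cells for 15 of the 28 genes and higher levels for 3 (HSD17B7, ACACA and ELOVL6), while 10 did not pass the test. The plasmid backbone named in the methods also differed between these populations. Of all genes, 21.0% were called lower and 20.9% higher. The difference was 2-fold or more for MVD, at -1.31, and for SREBF1, at -1.003, and 6.95% of all genes were called at that size. The median over the 28 genes was -0.27, against -0.03 over all genes, and was -0.33 after quantile normalization. When any 1 array was left out, fewer of the 28 genes and fewer of all probes were called, and the median ran from -0.28 to -0.25. With no filter on dim probes 6 genes were called lower, beside 4.73% of all probes. FDPS, MVD, MSMO1, SREBF1, INSIG1 and SCD were called lower, and HSD17B7 higher, under all 16 alternatives. The calls of FASN and ACACA were lost without any 1 of the 6 arrays. Those of ACACA and ELOVL6 were lost with the mean over a gene's probes. The second probes of ACACA and ELOVL6 had the opposite sign to the main probe here, at -0.078 (adjusted p = 0.304) and -0.065 (adjusted p = 0.813).

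**Figure D2:**
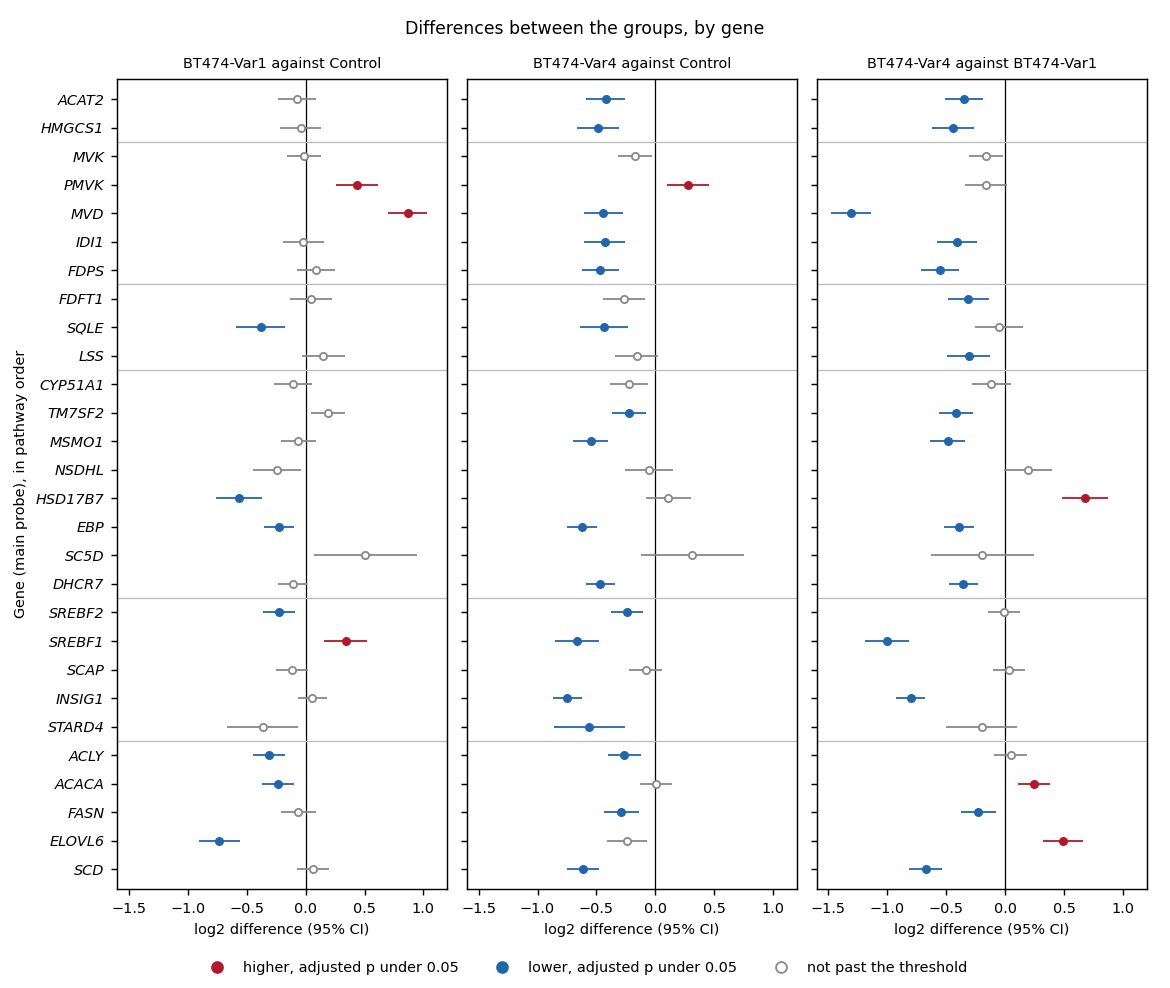
Difference between groups for the main probe of each gene, with its 95% confidence interval, on the log2 scale; filled points passed an adjusted p under 0.05. The middle panel holds 17 genes called lower, the left panel 7 and the right panel 15.

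Promoter sequences were read for the genes whose changes were largest, since the members are known as targets or parts of the SREBP system. RefSeq windows from 250 bases before to 50 after a start site (GRCh38) were at hand for 24 of the 28 genes, and ACAT2, FDFT1, SQLE and FASN had no entry. They were searched on both strands for a sterol regulatory element (TCACNCCAC), the binding letters of NF-Y (CCAAT), the GC box of Sp1 (GGGCGG) and an E-box (CACGTG). The sterol regulatory element was in the windows of 1 of the 24 genes, SREBF2, and in 1.39% of all 27305 genes with windows. Only this exact form was searched, so that elements with other letters or outside the windows were missed. Its absence does not show that a gene lacks a sterol element. CCAAT was present in 19 of 24 genes, against 39.7% of all genes, the GC box in 23 of 24, against 48.3%, and the E-box in 4 of 24, against 8.77%. Shown are the 250 bases before the start of the 4 genes that fell most in BT474-Var4 cells, of MVD, which moved in opposite directions in the 2 populations, and of SREBF2, the holder of the sterol element. Capitals mark CCAAT, written ATTGG where it lies on the other strand, and the sterol element.
INSIG1 (GRCh38 chr7:155297628-155297877, plus strand): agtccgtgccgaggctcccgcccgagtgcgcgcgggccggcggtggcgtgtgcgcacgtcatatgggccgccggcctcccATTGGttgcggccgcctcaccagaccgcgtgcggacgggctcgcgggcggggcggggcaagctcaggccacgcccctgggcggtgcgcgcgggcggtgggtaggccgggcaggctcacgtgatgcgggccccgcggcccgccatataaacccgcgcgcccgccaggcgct
SREBF1 (GRCh38 chr17:17836987-17837236, minus strand): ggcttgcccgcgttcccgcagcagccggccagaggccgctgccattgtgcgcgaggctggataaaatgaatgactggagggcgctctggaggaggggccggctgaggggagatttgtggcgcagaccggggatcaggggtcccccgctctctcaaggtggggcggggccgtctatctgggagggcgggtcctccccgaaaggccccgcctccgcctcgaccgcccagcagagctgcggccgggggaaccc
EBP (GRCh38 chrX:48521558-48521807, plus strand): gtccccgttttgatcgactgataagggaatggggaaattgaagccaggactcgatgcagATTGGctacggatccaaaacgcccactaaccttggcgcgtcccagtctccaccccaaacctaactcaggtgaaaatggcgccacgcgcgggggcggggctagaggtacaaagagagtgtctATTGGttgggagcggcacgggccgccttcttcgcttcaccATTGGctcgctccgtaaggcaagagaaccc
SCD (GRCh38 chr10:100346983-100347232, plus strand): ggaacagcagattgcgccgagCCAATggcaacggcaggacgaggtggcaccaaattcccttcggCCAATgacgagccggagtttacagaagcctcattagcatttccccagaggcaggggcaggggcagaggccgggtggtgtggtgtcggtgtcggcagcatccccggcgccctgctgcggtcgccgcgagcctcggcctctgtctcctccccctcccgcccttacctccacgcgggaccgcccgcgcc
MVD (GRCh38 chr16:88663092-88663341, minus strand): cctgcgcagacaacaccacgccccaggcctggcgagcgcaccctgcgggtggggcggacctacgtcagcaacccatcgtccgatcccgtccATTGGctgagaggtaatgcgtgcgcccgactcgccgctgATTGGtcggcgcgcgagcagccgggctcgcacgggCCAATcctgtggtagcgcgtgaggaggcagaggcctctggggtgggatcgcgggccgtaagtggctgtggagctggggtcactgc
SREBF2 (GRCh38 chr22:41832855-41833104, plus strand): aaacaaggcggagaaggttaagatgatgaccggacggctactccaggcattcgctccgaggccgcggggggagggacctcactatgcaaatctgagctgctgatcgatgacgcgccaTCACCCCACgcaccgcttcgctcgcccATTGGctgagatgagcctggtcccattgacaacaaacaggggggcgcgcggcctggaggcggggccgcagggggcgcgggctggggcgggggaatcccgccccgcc

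EBP and MVD held 3 CCAAT matches each, and SCD 2. INSIG1 held 1 of them, whose first base lies 170 bases before the start, with an E-box at 55 bases. The window of SREBF1 had no match to CCAAT or the sterol element. In SREBF2 the sterol element begins 133 bases and the CCAAT match 106 bases before the start, so that they do not overlap. These matches describe letters and not bound sites.

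Both enzymes at the entry of the pathway fell in BT474-Var4 cells. HMGCS1, which makes HMG-CoA, read 3.82 and 3.85 for Control, 3.82 and 3.76 for BT474-Var1 and 3.28 and 3.41 for BT474-Var4. Both BT474-Var4 arrays lay below all other arrays, with a difference of -0.49 ± 0.067 (SE, adjusted p = 0.0141) from Control and -0.44 (adjusted p = 0.00962) from BT474-Var1 cells. ACAT2, the cytosolic thiolase that joins 2 acetyl-CoA, read 4.44 and 4.43 for Control, 4.41 and 4.30 for BT474-Var1 and 4.03 and 3.99 for BT474-Var4, and fell by 25.4% from Control (adjusted p = 0.0155) and fell by 21.4% from BT474-Var1 cells (adjusted p = 0.0142). Against Control, BT474-Var1 cells differed by -0.043 (adjusted p = 0.654) for HMGCS1 and -0.074 (adjusted p = 0.395) for ACAT2.

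The steps from mevalonate to farnesyl diphosphate held the widest spread between the populations. MVD read 1.42 and 1.50 for Control, 2.28 and 2.36 for BT474-Var1 and 0.99 and 1.04 for BT474-Var4, and its 3 groups did not overlap. The rise with variant 1 was 0.87 ± 0.063 (SE, adjusted p = 0.00385). With variant 4, MVD fell by 26.4% (log2 difference -0.44, SE 0.063, adjusted p = 0.0151). The enzyme before it, phosphomevalonate kinase (PMVK), was higher than Control in both populations, reading 3.66 and 3.73 for Control, 4.17 and 4.10 for BT474-Var1 and 3.92 and 4.03 for BT474-Var4. Against Control, BT474-Var1 cells differed by 0.44 (adjusted p = 0.012) and BT474-Var4 cells by 0.28 (adjusted p = 0.0467), and the latter call was lost when any of the 6 arrays was left out. Mevalonate kinase (MVK) did not pass the test in either, with -0.011 (adjusted p = 0.888) and -0.17 (adjusted p = 0.0837).

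IDI1, the isopentenyl diphosphate isomerase, and FDPS, which makes farnesyl diphosphate, fell in BT474-Var4 cells. IDI1 read 4.08 and 4.00 for Control, 3.99 and 4.05 for BT474-Var1 and 3.66 and 3.56 for BT474-Var4. FDPS read 5.88 and 5.95 for Control, 6.04 and 5.96 for BT474-Var1 and 5.47 and 5.43 for BT474-Var4. Both BT474-Var4 arrays were the lowest for each gene, and the differences from Control were -0.43 (adjusted p = 0.0171) for IDI1 and -0.47 (adjusted p = 0.0126) for FDPS. Against BT474-Var1 cells they were -0.41 (adjusted p = 0.0111) and -0.55 (adjusted p = 0.00464), and BT474-Var1 cells differed from Control by -0.019 (adjusted p = 0.842) and 0.086 (adjusted p = 0.327).

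Squalene epoxidase (SQLE), a rate-limiting oxygenase of the pathway, was lower than Control in both populations. It read 5.41 and 5.32 for Control, 5.00 and 4.96 for BT474-Var1 and 5.01 and 4.85 for BT474-Var4. From Control, BT474-Var1 cells differed by -0.38 ± 0.077 (SE, adjusted p = 0.0235) and BT474-Var4 cells by -0.43 ± 0.077 (SE, adjusted p = 0.0242). The 95% interval of the difference between the populations ran from -0.25 to 0.15. Squalene synthase (FDFT1) differed from Control by -0.27 (adjusted p = 0.0517) in BT474-Var4 cells, just short of the threshold, while BT474-Var1 cells stood at 0.046 (adjusted p = 0.627). Between the populations it was called lower in BT474-Var4 cells, at -0.31 (adjusted p = 0.0234). Lanosterol synthase (LSS), by its main probe, was called in the direct comparison, at -0.31 (adjusted p = 0.0262), with 0.15 (adjusted p = 0.164) and -0.16 (adjusted p = 0.163) against Control. The dimmer probe of LSS, below the 75th percentile on all arrays, was called higher in BT474-Var1 cells at 0.61 (adjusted p = 0.00823) and between the populations at -0.85 (adjusted p = 0.00328).

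Of the 8 enzymes after lanosterol, 4 fell in BT474-Var4 cells, namely MSMO1, EBP, DHCR7 and TM7SF2. MSMO1, the sterol C4-methyl oxidase, read 0.83 and 0.76 for Control, 0.72 and 0.75 for BT474-Var1 and 0.22 and 0.28 for BT474-Var4. EBP read 6.34 and 6.35 for Control, 6.11 and 6.14 for BT474-Var1 and 5.73 and 5.72 for BT474-Var4. DHCR7, which makes the last reduction to cholesterol in 1 branch, read 5.89 and 5.89 for Control, 5.77 and 5.78 for BT474-Var1 and 5.43 and 5.41 for BT474-Var4. In all 3 genes both BT474-Var4 arrays were below every other array, and the differences from Control were -0.55 ± 0.056 (SE, adjusted p = 0.00779), -0.62 ± 0.048 (SE, adjusted p = 0.00512) and -0.47 ± 0.047 (SE, adjusted p = 0.00766). For EBP the BT474-Var1 arrays lay between the other groups, -0.22 (adjusted p = 0.0275) from Control. TM7SF2, a sterol C14 reductase, fell by 14.4% in BT474-Var4 cells (adjusted p = 0.0482), a call lost after quantile normalization, with the replicate letter as a block and without any 1 of the 6 arrays, whereas BT474-Var1 cells stood at 0.19 (adjusted p = 0.0556), and the populations differed by -0.42 (adjusted p = 0.00704).

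HSD17B7, the 3-ketosteroid reductase of the C4 demethylation complex, ran the other way. Its main probe read 1.92 and 2.06 for Control, 1.39 and 1.46 for BT474-Var1 and 2.12 and 2.08 for BT474-Var4, with both BT474-Var1 arrays below the rest. The gene fell by 32.4% in BT474-Var1 cells (log2 difference -0.56, SE 0.073, adjusted p = 0.00843), stood at 0.11 (adjusted p = 0.319) in BT474-Var4 cells, and the ratio of BT474-Var4 to BT474-Var1 cells was 1.6-fold (adjusted p = 0.00448). CYP51A1, the C14 demethylase, NSDHL, its neighbor in C4 demethylation, and SC5D, the C5 desaturase, did not pass the test in any comparison. CYP51A1 differed by -0.22 (adjusted p = 0.0635) in BT474-Var4 cells and NSDHL by -0.25 (adjusted p = 0.0692) in BT474-Var1 cells. SC5D was dim, and its Control arrays lay apart at -2.44 and -1.98, against -1.72 and -1.69 in BT474-Var1 and -1.85 and -1.95 in BT474-Var4 cells.

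Among the regulators, INSIG1 and SREBF1 set BT474-Var4 cells apart from both other groups. INSIG1 read 3.02 and 3.01 for Control, 3.07 and 3.07 for BT474-Var1 and 2.27 and 2.26 for BT474-Var4, and its replicates almost coincided in every group. It fell by 40.4% from Control (log2 difference -0.75, SE 0.047, adjusted p = 0.00377) and fell by 42.7% from BT474-Var1 cells (log2 difference -0.80, SE 0.047, adjusted p = 0.00155), and the 95% interval for BT474-Var1 against Control was -0.068 to 0.18. SREBF1 read 6.19 and 6.10 for Control, 6.46 and 6.51 for BT474-Var1 and 5.55 and 5.42 for BT474-Var4, so that its 3 groups did not overlap. It rose by 26.6% in BT474-Var1 cells (log2 difference 0.34, SE 0.07, adjusted p = 0.0247) and fell by 36.8% in BT474-Var4 cells (log2 difference -0.66, SE 0.07, adjusted p = 0.00842), both by its main probe. With the mean over its 2 probes neither passed, at 0.13 (adjusted p = 0.265) and -0.26 (adjusted p = 0.0824), since the second probe had the opposite sign, and leaving out either Control array also ended both calls.

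SREBF2 was called lower than Control in both populations. It read 3.17 and 3.15 for Control, 2.91 and 2.96 for BT474-Var1 and 2.90 and 2.94 for BT474-Var4, so that BT474-Var1 cells stood at -0.23 (adjusted p = 0.0312) and BT474-Var4 cells at -0.24 (adjusted p = 0.0367). The 95% interval of the difference between the populations was -0.15 to 0.12. Both calls were lost under 10 of the 16 alternatives, among them leaving out any 1 array and quantile normalization, which moved BT474-Var1 cells to -0.099 (adjusted p = 0.208) and BT474-Var4 cells to -0.21. SCAP, the escort of the SREBPs, differed by -0.12 (adjusted p = 0.158) and -0.083 (adjusted p = 0.302). STARD4, a cytosolic sterol carrier, read -0.72 and -0.56 for Control, -0.92 and -1.09 for BT474-Var1 and -1.10 and -1.31 for BT474-Var4, and fell in BT474-Var4 cells (log2 difference -0.56, SE 0.11, adjusted p = 0.0318), while the value in BT474-Var1 cells was -0.36 (adjusted p = 0.0704).

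The fatty acid enzymes divided between the populations. SCD, which places the double bond in stearate, read 3.14 and 3.15 for Control, 3.23 and 3.18 for BT474-Var1 and 2.51 and 2.55 for BT474-Var4. It fell by 34.7% in BT474-Var4 cells (log2 difference -0.61, SE 0.051, adjusted p = 0.00568), and the difference from BT474-Var1 cells was -0.68 (adjusted p = 0.00236). FASN, the fatty acid synthase, read 6.17 and 6.15 for Control, 6.14 and 6.06 for BT474-Var1 and 5.85 and 5.89 for BT474-Var4, and fell by 18.2% in BT474-Var4 cells (adjusted p = 0.0288), beside -0.062 (adjusted p = 0.437) in BT474-Var1 cells. ELOVL6 read 1.48 and 1.53 for Control, 0.72 and 0.84 for BT474-Var1 and 1.25 and 1.29 for BT474-Var4, lowest on both BT474-Var1 arrays. Its fall was -0.73 ± 0.064 (SE, adjusted p = 0.00473) in BT474-Var1 cells, with -0.24 (adjusted p = 0.0592) in BT474-Var4 cells, and the populations differed by 0.49 (adjusted p = 0.00708).

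ACLY, which cleaves citrate to cytosolic acetyl-CoA, fell in both populations, and ACACA, the cytosolic acetyl-CoA carboxylase, in BT474-Var1 cells. ACLY read 2.85 and 2.90 for Control, 2.54 and 2.59 for BT474-Var1 and 2.61 and 2.61 for BT474-Var4, a difference from Control of -0.31 (adjusted p = 0.0152) and -0.26 (adjusted p = 0.0307). The main probe of ACACA read 6.96 and 6.93 for Control, 6.74 and 6.68 for BT474-Var1 and 6.97 and 6.94 for BT474-Var4, so that BT474-Var1 cells differed from Control by -0.24 (adjusted p = 0.0286) and BT474-Var4 cells by 0.0071 (adjusted p = 0.933). The second probe of ACACA did not share the fall, at 0.079 (adjusted p = 0.319) in BT474-Var1 cells.

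**Figure D3:**
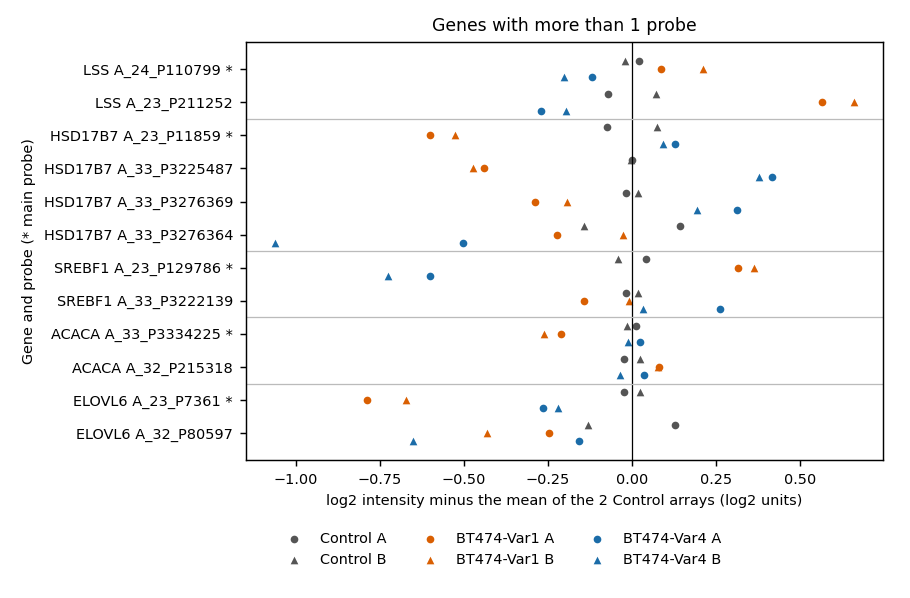
Log2 intensity of every probe of the 5 genes with more than 1 probe, less the mean of the Control arrays; an asterisk marks the main probe. Both SREBF1 probes lie 55 bases apart, and the BT474-Var4 arrays are left of 0 for the main probe and right of 0 for the other.

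Probes of the same gene did not always move together. The main probe of SREBF1 lies at chr17:17715419-17715478 (hg19) and the second at chr17:17715304-17715363, 55 bases apart, and the second read 0.092 and 0.13 for Control, -0.032 and 0.10 for BT474-Var1 and 0.37 and 0.14 for BT474-Var4. Its differences from Control were -0.075 (adjusted p = 0.598) and 0.15 (adjusted p = 0.333), of the opposite sign to the main probe in both populations, so that the calls of SREBF1 rest on 1 probe. Of the other HSD17B7 probes, A_33_P3225487 was called in all 3 comparisons, with BT474-Var1 cells at -0.46 (adjusted p = 0.00622) and BT474-Var4 cells at 0.40 (adjusted p = 0.0118) from Control and 0.85 (adjusted p = 0.00155) between them, and A_33_P3276369 was called between the populations at 0.49 (adjusted p = 0.00833). The dimmest HSD17B7 probe, A_33_P3276364, had the opposite sign in BT474-Var4 cells at -0.78 (adjusted p = 0.069). HSD17B7 has near-identical pseudogene copies, and which copies its probes read was not tested. The second ELOVL6 probe was below Control in both populations, at -0.34 (adjusted p = 0.256) and -0.40 (adjusted p = 0.209), without passing the test.

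**Figure D4:**
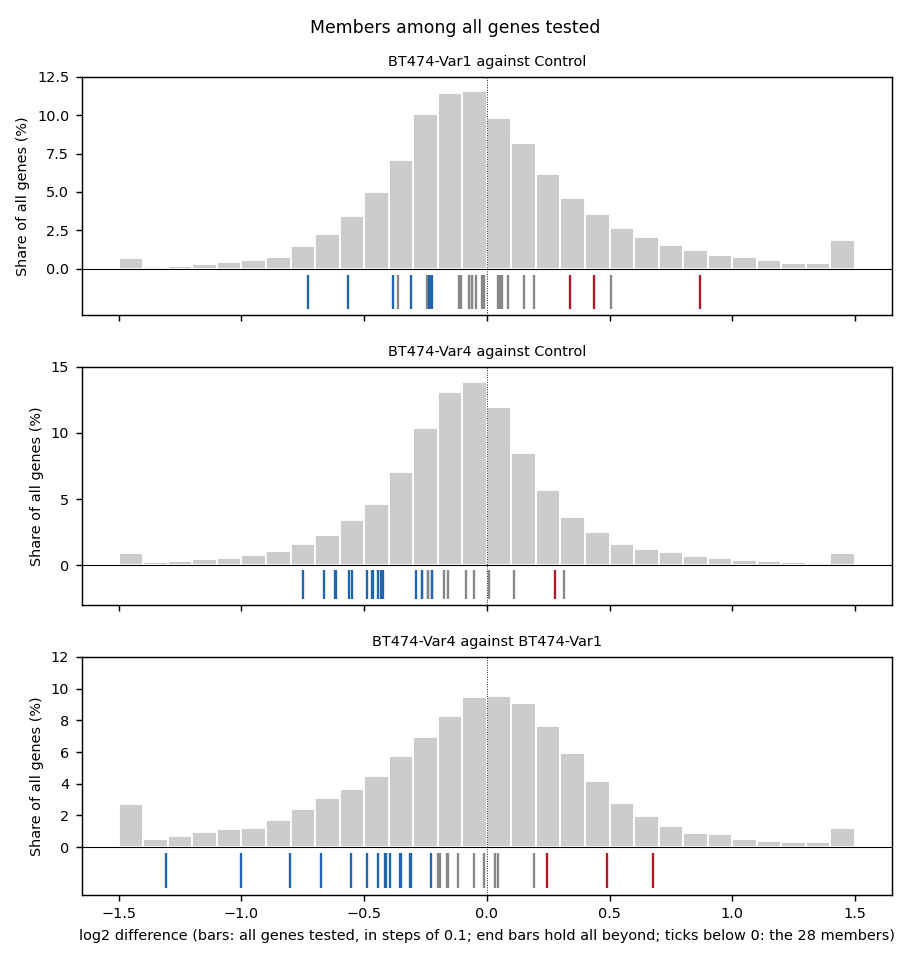
Share of all 24619 genes by log2 difference (gray bars, steps of 0.1 with the outer bars holding all genes beyond) and the 28 genes (ticks below the axis, red called higher, blue called lower, gray not called), for each comparison. The ticks reach from -0.75 to 0.31 in BT474-Var4 against Control and from -0.73 to 0.87 in BT474-Var1 against Control.

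Other genes of sterol and fatty acid metabolism were counted in 6 lists, beside 14.2% of all genes called higher and 20.7% lower in BT474-Var1 cells and 10.2% higher and 14.6% lower in BT474-Var4 cells. Of 9 genes of SREBP processing and turnover, 2 were called higher and 1 lower in BT474-Var1 cells, while 0 were called in BT474-Var4 cells by limma or by the methods' analysis of variance, 3 having an unadjusted p under 0.05. Their median was -0.079 in BT474-Var1 cells (0.037 after quantile normalization) and 0.022 in BT474-Var4 cells (0.046). Of 13 further isoprenoid and sterol enzymes, 1 rose and 6 fell in BT474-Var1 cells, and 1 rose and 1 fell in BT474-Var4 cells, with medians of -0.18 and -0.021, the latter 0.011 after quantile normalization. Of 10 measured genes of sterol transport and storage, 7 fell in BT474-Var1 cells and 1 in BT474-Var4 cells, with medians of -0.36 and -0.019, which became -0.23 and -0.0042 after quantile normalization. The 1 of 10 called lower in BT474-Var4 cells was near the 14.6% of all genes. The 1 that rose in BT474-Var1 cells was VLDLR, a lipoprotein receptor, by 1.45 (adjusted p = 0.00304), and between the populations it was lower with variant 4, at -1.39 (adjusted p = 0.00155).

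LXR is a nuclear receptor for oxysterols. Of 7 genes of LXR and its known targets, 4 rose with variant 1 and 2 with variant 4, beside 14.2% and 10.2% of all genes called higher, with medians of 0.29 and 0.13. NR1H2, which encodes LXR beta, rose by 1.02 in BT474-Var1 cells (adjusted p = 0.00396) and ABCA1, the cholesterol exporter, by 1.31 with variant 1 (adjusted p = 0.0105) and 0.86 with variant 4 (adjusted p = 0.0381). The ABCA1 probe was dim, at -4.20 and -4.07 on the Control arrays, and was well above background on 1 of the 2 Control and 1 of the 2 BT474-Var4 arrays. It thus entered the test only through the BT474-Var1 arrays, where it was highest, so that the filter favored a rise in those cells. The counts of 4 and 2 include it. Of 16 measured genes of fatty acid supply, elongation and desaturation, 4 rose and 6 fell in BT474-Var1 cells, and 1 rose and 7 fell in BT474-Var4 cells, with medians of 0.085 (0.17 after quantile normalization) and -0.26. Beside them, 14.2% of all genes were called higher and 20.7% lower with variant 1, and 10.2% and 14.6% with variant 4. ACACB, the mitochondrial acetyl-CoA carboxylase, read -0.69 and -0.39 for Control, 0.88 and 0.91 for BT474-Var1 and -1.63 and -1.88 for BT474-Var4. Its rise with variant 1 was 1.43 (adjusted p = 0.00536), and its difference with variant 4 was -1.22 (adjusted p = 0.00998), so that its groups did not overlap. ELOVL2, an elongase of polyunsaturated fatty acids, fell in BT474-Var4 cells at -1.72 (adjusted p = 0.0247), where it was well above background on 1 of the 2 arrays. Of 12 measured genes of acyl-CoA, glycerolipid and lipid droplet metabolism, 0 were called in BT474-Var1 cells by limma or the methods' analysis of variance, with 4 at an unadjusted p under 0.05, and 3 rose and 1 fell in BT474-Var4 cells, with medians of -0.0078 (0.045 after quantile normalization) and 0.0027 (0.048).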

How the data were processed

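RNA of 6 samples, 2 per group, was hybridized with the Cy3 dye to Agilent arrays of the one-color kind. The authors read the spots in Feature Extraction 11.5.1.1, a program that corrects for background and for trends across the array. The deposited files hold an intensity for every spot, on a linear scale, and a table of log2 values that the authors had shifted to the 75th percentile of each array. The file headers place the probes on hg19. For each array, log2 of the processed intensity was averaged over the spots of a probe without outlier spots, and the 75th percentile over non-control probes was subtracted, which came within 0.00716 of the deposited table (median absolute difference, the largest over arrays). The 31858 probes marked well above background on each array of any group entered the test. Group means were fitted with limma 3.58.1 (R 4.3.3) over the 6 arrays, with 3 residual and 1.53 prior degrees of freedom, and adjusted p-values follow Benjamini and Hochberg over those probes. The brightest tested probe by mean stood for a gene. The number of arrays limits the precision.

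Every member gene is named. Of the 6 other lists (SREBP processing and turnover, other isoprenoid and sterol enzymes, sterol transport and storage, LXR and its targets, fatty acid supply, elongation and desaturation, and acyl-CoA, glycerolipid and lipid droplet genes), those named were called at 2-fold or more in at least 1 comparison, up to the 4 largest per list. The members and the lists were chosen with earlier results of these data known. The replicate letters were not treated as a pairing across groups in the main fit. Alternatives were background correction by normexp (offset 50), quantile normalization, no filter and a stricter filter on dim probes, the table of the authors, a block for the replicate letter, trended and robust eBayes, fits restricted to the groups compared, one-way analysis of variance as in the methods, averaging a gene's probes, and omission of each array. In the analysis of variance, pairs of groups were called at an adjusted p under 0.05. The study's own heatmap of these cells used a 2-fold change with p under 0.05 and names no adjustment. Motifs were searched with Python 3.11.15.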

Additional observations from a re-analysis of the deposited data

Results flagged for a closer look

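MVD and SREBF1 were called in opposite directions in the 2 populations, higher than Control in BT474-Var1 and lower in BT474-Var4 cells. The test of the difference itself gave -1.31 (adjusted p = 0.00127) for MVD and -1.003 (adjusted p = 0.00203) for SREBF1. These are BT474-Var4 minus BT474-Var1 on the log2 scale. In both genes the arrays of the 3 groups did not overlap. Between any 2 groups, 25 or 26 of the 28 genes had no overlap, called or not. The second probe of SREBF1 differed between the populations by 0.22 (adjusted p = 0.142). The BT474-Var1 pair had its own column on the slide, and position and group cannot be told apart. The same holds for variant and plasmid backbone between the 2 populations.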

How the results depend on the processing

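The counts of called genes among the 28 were recomputed under 10 other settings and without each array in turn, and no single-gene result reversed its direction where it was called. In BT474-Var1 against Control, where 3 genes were called higher and 7 lower, normexp background correction gave 5 and 12, quantile normalization 5 and 4, and no filter on dim probes 1 and 1. Of all probes, 14.1% were called higher and 20.3% lower in the main fit. These shares were 20.3% and 25.7% with normexp, 14.4% and 18.01% after quantile normalization, and 2.37% and 2.23% with no filter. The replicate letter as a block left 4 called lower, as did a fit of only the 2 groups compared, beside 15.8% and 17.0% of all probes. Trended and robust eBayes gave 6 called higher and the methods' analysis of variance 5, beside 17.5% and 9.88%. In BT474-Var4 against Control, 17 genes were called lower, beside 14.3% of all probes. With no filter on dim probes this became 1, beside 0.498%, although 19 members had an unadjusted p under 0.05 in that direction. The replicate block left 12, beside 8.85% of all probes. The 1 gene called higher there, PMVK, was lost by limma with no filter, with the block and in the fit of 2 groups. It was also lost by the analysis of variance. Each of these left 0 genes, with 1 gene at an unadjusted p under 0.05. In that order, 0.742%, 6.54%, 7.38% and 6.96% of all probes were called higher. In BT474-Var4 against BT474-Var1, 6 genes were called lower with no filter on dim probes, beside 4.73% of all probes. The mean over a gene's probes left 1 called higher, beside 19.9% of all genes. For these changes the cause was not tested.

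Without single arrays, 1 to 3 genes were called higher and 2 to 4 lower in BT474-Var1 against Control, 0 higher each time and 3 to 12 lower in BT474-Var4 against Control, and 2 higher each time and 11 to 13 lower between the populations. In a fit without 1 array, the lone array of its group is assumed to vary like the others. Samples with the same letter did not deviate together (r = -0.012, 0.045 and -0.015 for the 3 pairs of groups). This cannot show whether samples of 1 letter were handled together, which the labels do not give. The intensity of the dim probes of SC5D, STARD4, LSS, ELOVL6 and HSD17B7 over background limits what they can show.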
